A study of Saccharomyces cerevisiae with 12 samples.

Results

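The comparison set Saccharomyces cerevisiae strain ITD00185 against strain T73 after 48 h of growth in synthetic agave must at 28 ºC, using the 3 arrays labelled ITD00185 at 48 h and the 3 labelled T73 at 48 h, 6 of the 12 arrays of the series. The other 6 arrays held the same strains at 96 h. The series title names an agave strain, read here as ITD00185, and T73 is a commercial wine yeast. On each array the strain's RNA carried Cy5 and was hybridized together with a Cy3-labelled sample mix of the same time, with no dye swap, and the replicates are biological according to the labels. Values are the log2 ratios given by the authors, read as strain over mix, a direction that is likely from the labels but not stated in them, so every sign below rests on it. Probes of one gene were averaged, and the 5522 of 6214 genes with at least 2 values in each strain were tested. Each strain difference is the log2 ratio in ITD00185 minus that in T73, given ± its standard error, and genes are called higher or lower where limma's adjusted p was under 0.05. Gene content and sequence of the strains were not measured, so a low ratio from low expression and one from an absent or diverged gene cannot be told apart.

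Agave must is rich in fructose and its polymers and poor in nitrogen, and a fermenting yeast reads both. Glucose and fructose repress genes for other sugars and for respiration through Mig1 and related factors. Good nitrogen sources silence the genes for allantoin, proline and asparagine use through the GATA factors Gln3, Gat1 and Dal80, and oxygen and haem set the level of the hypoxic repressor Rox1, while heat shock factor Hsf1 governs the chaperone genes.

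At 48 h 258 of the 5522 genes were higher in ITD00185 than in T73 (4.67%) and 520 were lower (9.42%), 778 in all (14.1%), each by at least 2-fold. Higher in ITD00185 were 8 of 11 genes of leucine, valine and isoleucine synthesis, 7 of 11 genes for sucrose, maltose and isomaltose use and 6 of 16 hexose transporters and sensors, and single genes such as the acetyl-CoA synthetase ACS1 and the stationary phase gene SPG1. Lower in ITD00185 were the 4 periplasmic asparaginases, 5 of 8 genes for allantoin and urea use, the repressor ROX1, 10 of 32 chaperones, 8 of 26 sterol synthesis genes and 10 of 51 subunits of the transcription machinery. The arrays were not on one median, and the median difference over all genes was -0.31. When each array was centred on its median the split of calls was 321 higher and 370 lower, so that 46.5% of calls were higher in place of 33.2%, and the median over all genes was -0.04.

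Replicate 2 of ITD00185 stood apart from the other arrays of its group. Across genes its log2 ratios correlated at 0.40 and 0.50 with replicates 1 and 3 of ITD00185 at 48 h, which correlated at 0.73 with each other. The same array correlated at 0.62 to 0.71 with the T73 arrays of 48 h and at 0.81 to 0.84 with the ITD00185 arrays of 96 h. The spread of its ratios (SD over genes, 1.52) lay between that of the other ITD00185 arrays (1.03 and 1.06) and that of the T73 arrays (1.80 to 2.08). Array medians were -0.01, 0.10 and 0.02 in ITD00185 and 0.26, 0.43 and 0.22 in T73, and 5627 to 5809 genes had a value per array. These correlations are across genes that share an array and are given as a description. The array labelled replicate 2 was thus nearer to the 96 h arrays of its strain than to its own group. Whether it holds a 48 h sample was not tested, and each difference over 6 arrays and each change between 48 h and 96 h given below rests on its label.

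**Figure D1:**
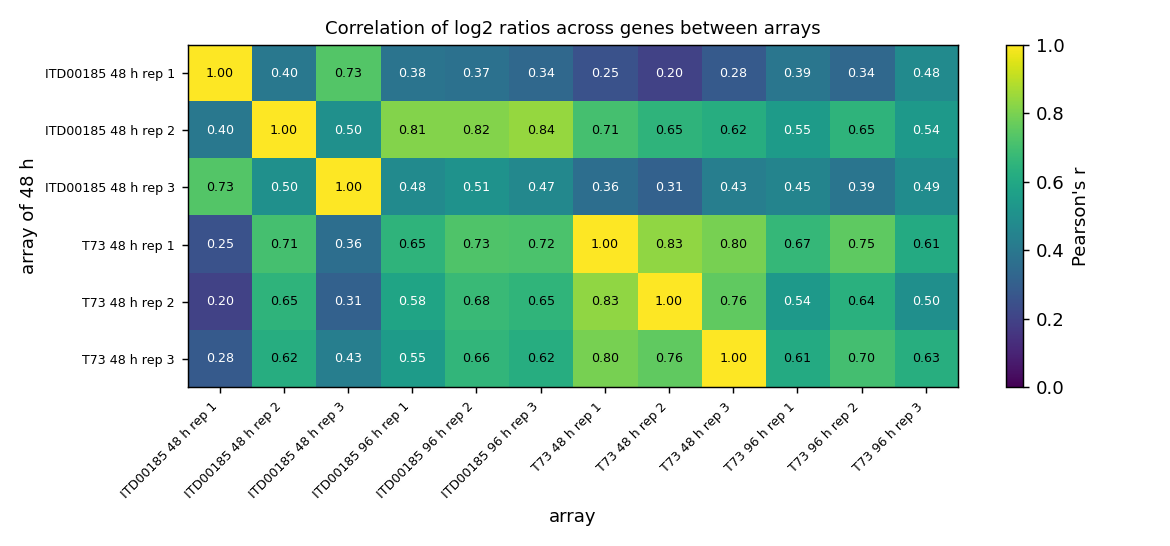
Pearson's r across genes between the log2 ratios of each 48 h array (rows) and all 12 arrays (columns), with the colour scale from 0 to 1 and ITD00185 arrays first on both axes. Replicate 2 of ITD00185 at 48 h has its highest values, 0.81 to 0.84, with the ITD00185 arrays of 96 h, and 0.40 and 0.50 with the other ITD00185 arrays of 48 h.

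The comparison was therefore made with and without that array. Without it 1830 of 5365 genes passed the threshold (34.1%), 611 higher (11.4%) and 1219 lower (22.7%) in ITD00185. Of the 778 calls with all arrays, 765 were called in the same direction without it (98.3% of the 778 and 41.8% of the 1830), and 11 of the remaining 13 had too few values left to test. A further 1065 genes were called only without it. The median SD of a gene among the ITD00185 arrays was 0.50 with the array and 0.22 without it, and 0.44 among the T73 arrays. Of the 4900 genes with all 6 values 1998 did not overlap between the strains (40.8%), 719 of them higher (14.7%) and 1279 lower (26.1%) in ITD00185. Among the 669 called genes with all 6 values, none of which overlapped, replicate 2 was the ITD00185 array nearest to T73 in 452 (67.6%), replicate 1 in 93 (13.9%) and replicate 3 in 124 (18.5%). The number of calls also moved with other arrays left out: 50 without ITD00185 replicate 1, 52 without ITD00185 replicate 3, 165 without T73 replicate 1 and 204 without T73 replicate 2, against 524 without T73 replicate 3. The 39 genes called in all 6 of these fits, a selection made after values were seen, are pointed out below as called with any array left out. All other calls below were lost, or could not be tested, without at least 1 array. The scaling of the arrays bore on the counts too: 691 genes were called with each array centred on its median (12.5%), 321 higher (5.81%) and 370 lower (6.7%), 214 were called with the arrays scaled to one spread (3.88%), 94 higher (1.7%) and 120 lower (2.17%), and 196 after quantile normalization (3.55%), 90 higher (1.63%) and 106 lower (1.92%). Of the 39 genes called with any array left out, 35 were also called both with the arrays scaled and after quantile normalization. FRS1 was called in neither setting, and GLN1, ERG6 and HSP42 were not called after quantile normalization. Counts of list members below are to be read against these shares of all genes. Values per array are given in the order of replicates 1, 2 and 3.

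**Figure D2:**
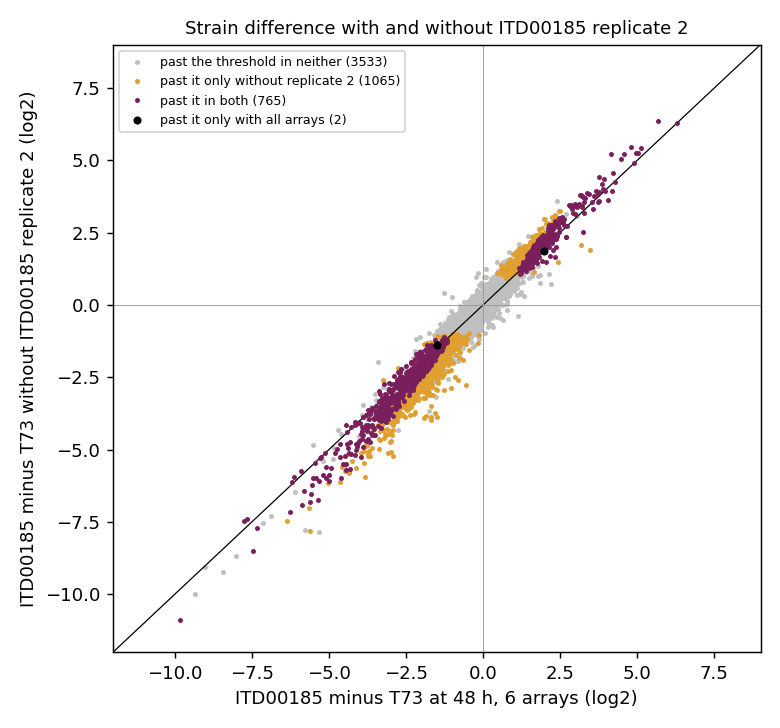
Strain difference (ITD00185 minus T73, log2) with 6 arrays (x axis) and without ITD00185 replicate 2 (y axis), 1 point per gene for the 5365 genes tested both ways, coloured by calls, with the line of equality. 1 gene lies beyond the axes. The 765 genes called both ways have the same sign on both axes, and some lie off the line, such as BDF2 (-5.35 on the x axis and -6.75 on the y axis). The 1065 called only without the array lie mostly farther from 0 on the y axis than on the x axis.

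The genes taken as the largest differences were 12 in each direction. They were chosen to have a symbol, 6 values, no overlap between the strains and a call with and without replicate 2. Without overlap the sign cannot turn when 1 array is left out, so the sign in those fits is no test. Of the 24 genes, 11 were called in all leave-one-out fits. All 24 stayed called with the arrays centred, 18 when the arrays were also scaled to one spread and 17 after quantile normalization. IRC9, a reading frame that overlaps the kinase gene YAK1 on chromosome X, had ratios of 4.25, 4.45 and 4.67 in ITD00185 cultures, against -1.93, -1.60 and -1.95 in T73 cultures. The groups were far apart and each was tight, with a difference of 6.29 ± 0.32 (adjusted p = 0.000624), called with any array left out. YAK1 itself had 0.44, 1.30 and 1.2 in ITD00185 cultures, against -0.76, -0.04 and -1.0 in T73 cultures, a smaller separation of 1.58 ± 0.41 (adjusted p = 0.047). AIF1, the yeast homologue of apoptosis-inducing factor, had 4.16, 2.65 and 5.19 in ITD00185 cultures, against -2.03, -1.62 and -1.36 in T73 cultures. All ITD00185 values were above all T73 values, by 5.67 ± 0.64 (adjusted p = 0.00712) on average, also with any array left out.

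SPG1, needed for survival at high temperature in stationary phase, had 3.16, 1.97 and 2.54 in ITD00185 cultures, against -2.19, -2.35 and -2.73 in T73 cultures, a difference of 4.98 ± 0.41 (adjusted p = 0.00261). ECM8, a gene of unknown function named in a screen for cell wall defects, had 0.92, 1.14 and 1.43 in ITD00185 cultures, against -4.27, -3.38 and -3.52 in T73 cultures, a difference of 4.89 ± 0.37 (adjusted p = 0.00232). For ECM8 replicate 2 of ITD00185 lay between the other ITD00185 arrays. HOS2, a histone deacetylase subunit of the Set3 complex, had 0.40, -0.24 and 1.04 in ITD00185 cultures, against -4.38, -3.92 and -3.19 in T73 cultures. EFG1, a nucleolar protein needed for 18S rRNA maturation, had 1.73, 2.19 and 1.16 in ITD00185 cultures, against -2.41, -2.66 and -2.43 in T73 cultures. In both genes the lowest ITD00185 array was above the highest T73 array by a wide margin, and SPG1, ECM8, HOS2 and EFG1 were all called with any array left out.

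Among the genes lower in ITD00185, ROX1, the repressor of hypoxic genes, had -1.60, -0.07 and -0.79 in ITD00185 cultures, against 7.90, 6.68 and 4.93 in T73 cultures. T73 was high on all 3 arrays and ITD00185 at or below the mix, a difference of -7.33 ± 0.78 (adjusted p = 0.00689) that was called with any array left out. SDA1, required for maturation of the large ribosomal subunit, had -0.50, 2.38 and -0.10 in ITD00185 cultures, against 8.43, 5.99 and 6.14 in T73 cultures, with ITD00185 replicate 2 between the strains. YAP1801, a clathrin assembly protein, had -0.48, 1.71 and 0.10 in ITD00185 cultures, against 4.55, 6.37 and 7.82 in T73 cultures. RCF1, a factor of respiratory supercomplexes, had -0.43, 3.02 and -0.73 in ITD00185 cultures, against 5.26, 5.52 and 7.88 in T73 cultures. MIL1, an interactor of a clathrin adaptor, had -0.50, 1.12 and -1.19 in ITD00185 cultures, against 3.64, 7.49 and 4.95 in T73 cultures. In these 4 genes ITD00185 replicates 1 and 3 were near or below the mix, and replicate 2 was closer to T73 than they were, yet below every T73 array. The differences were -6.26 for SDA1, -5.80 for YAP1801, -5.60 for RCF1 and -5.55 for MIL1 with all arrays, and -7.15, -6.43, -6.80 and -6.20 in the same order without replicate 2.

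The place of replicate 2 varied between genes. Set on a scale from 0% at the T73 mean to 100% at the mean of the other ITD00185 arrays, replicate 2 ran from 37.7% to 119% over the 24 genes, with a median of 69.0%, and lay under 75% in 14. It was low for BDF2, a bromodomain factor (37.7%), for DFP1 (38.8%) and for TFG1, the largest subunit of TFIIF (46.1%). For DAL5, ECM8 and IRC9 it lay at 98.2%, 99.2% and 99.8%, and for ASP3-1 and EFG1 beyond the other ITD00185 arrays, at 109% and 119%.

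**Figure D3:**
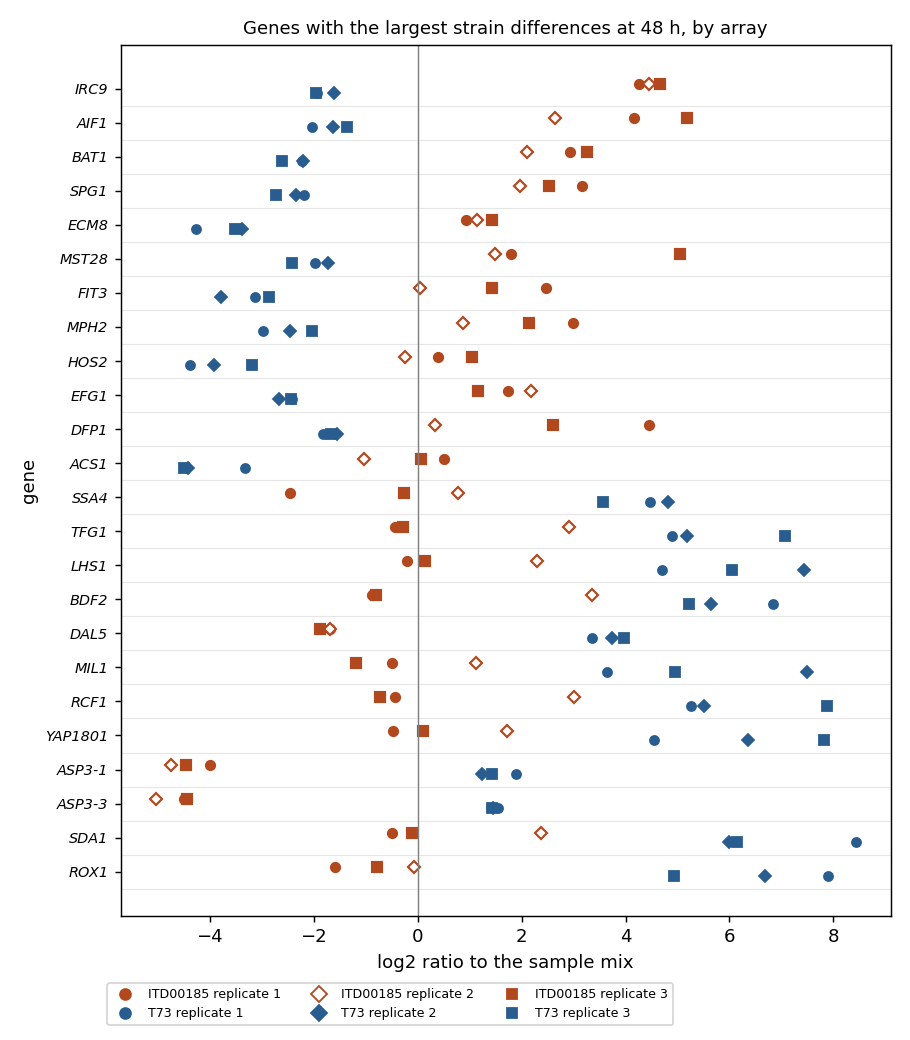
Log2 ratio to the sample mix (x axis) on each 48 h array for the 12 genes with the largest positive and the 12 with the largest negative differences (rows, by difference), with ITD00185 in orange above T73 in blue in each row and ITD00185 replicate 2 as an open diamond. The genes were chosen so that the strains do not overlap in any row. The open diamond lies from 37.7% (BDF2) to 119% (EFG1) of the way between the T73 mean and the other ITD00185 points.

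Of the sucrose, maltose and isomaltose genes 7 of 11 were higher in ITD00185 and 0 lower, with a median difference of 2.40. Without replicate 2 it was 6 higher and 0 lower of 9. Of these sugar genes, 6 were called higher and 0 lower with the arrays scaled, and 6 and 0 after quantile normalization. The permease MAL11 and the isomaltase IMA5 could not be tested, as they had 3 values in T73 and none in ITD00185 at 48 h. IMA5 had -2.92, -3.08 and -2.15 in T73 cultures. MPH2, an alpha-glucoside permease, had 2.99, 0.87 and 2.14 in ITD00185 cultures, against -2.98, -2.46 and -2.03 in T73 cultures, a difference of 4.49 ± 0.58 (adjusted p = 0.0104). MPH3, its near-identical copy, had 3.05 and 4.50 in ITD00185 cultures (no value in replicate 3), against -2.02, -1.2 and -1.81 in T73 cultures, and the probes of the pair may share signal. MAL33, an activator of the maltose genes, had 0.85, 0.69 and 1.51 in ITD00185 cultures, against -2.76, -2.94 and -2.06 in T73 cultures, a difference of 3.61 ± 0.40 (adjusted p = 0.00712) that was called with any array left out. MAL31, a maltose permease, differed by 2.62 ± 0.42 (adjusted p = 0.0164), and the isomaltases IMA1, IMA3 and IMA4, close copies of each other, by 2.40, 2.25 and 3.10. SUC2, the invertase that splits sucrose, had 0.29, 0.57 and 1.43 in ITD00185 cultures, against 0.63, -0.90 and 0.83 in T73 cultures. These overlapped, with a difference of 0.58 ± 0.56 (adjusted p = 0.476), and MAL12 and MAL32, the maltases, gave -0.75 and 0.44 and were not called.

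Of the hexose transporters and sensors 6 of 16 were higher in ITD00185 and 0 lower, with a median difference of 1.29. Of these 16 genes, 2 were called higher and 0 lower with the arrays scaled, and 1 and 0 after quantile normalization. HXT8 had 0.32, -0.43 and -0.46 in ITD00185 cultures, against -2.39, -2.63 and -2.57 in T73 cultures, the largest difference of the called members at 2.34 ± 0.35 (adjusted p = 0.0151). HXT13 (difference 2.10) and HXT15 (1.97), which share most of their sequence, HXT6 (1.77) and HXT7 (1.59), a near-identical high-affinity pair, and GAL2 (1.59), the galactose permease, were also called. The low-affinity carriers HXT1 and HXT3 had differences of 1.07 and 1.29 and were not called. HXK1, a hexokinase that also phosphorylates fructose, had 2.26, 0.13 and 1.58 in ITD00185 cultures, against -1.07, -1.24 and -2.17 in T73 cultures, a difference of 2.81 ± 0.61 (adjusted p = 0.0303).

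Of 13 regulators of glucose repression and sensing, 2 were higher and 2 lower. ZNF1, a zinc cluster regulator of carbon metabolism, had 6.20 and 5.05 in ITD00185 cultures (no value in replicate 3), against -2.59, -2.04 and -2.10 in T73 cultures, a difference of 7.87 ± 0.49 (adjusted p = 0.00232), and could not be tested without replicate 2. MIG2, a repressor related to Mig1, was higher by 1.77 ± 0.37 (adjusted p = 0.0268). STD1, which controls the Snf1 kinase and the glucose sensors, had -2.12, 0.60 and -1.24 in ITD00185 cultures, against 4.15, 4.00 and 2.13 in T73 cultures, a difference of -4.34 ± 0.82 (adjusted p = 0.0237). REG1, a phosphatase subunit in glucose repression, was lower, at -1.5 (adjusted p = 0.0497), but was not called without replicate 2 (adjusted p = 0.0504), with any other single array left out, or with the arrays centred. MIG1 had -1.0, 3.78 and -0.04 in ITD00185 cultures, against 4.85, 4.84 and 4.2 in T73 cultures. Replicates 1 and 3 of ITD00185 were low and replicate 2 was close to the T73 arrays, so that the difference was -3.72 ± 1.14 (adjusted p = 0.0687) with all arrays and -5.15 without replicate 2 (adjusted p = 0.00288).

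In central carbon metabolism ACS1, the acetyl-CoA synthetase of respiring cells, had 0.50, -1.04 and 0.06 in ITD00185 cultures, against -3.33, -4.43 and -4.50 in T73 cultures. T73 was far below the mix on all arrays, and the difference was 3.92 ± 0.53 (adjusted p = 0.0116). ALD6, the cytosolic aldehyde dehydrogenase that makes acetate, went the other way, with -0.87, -2.10 and -1.27 in ITD00185 cultures, against 0.20, 0.83 and 0.39 in T73 cultures and a difference of -1.89 ± 0.42 (adjusted p = 0.0328). FBP1, the gluconeogenic bisphosphatase, had 0.81, -0.11 and 0.77 in ITD00185 cultures, against -2.13, -2.08 and -1.65 in T73 cultures, a difference of 2.44 ± 0.38 (adjusted p = 0.0159). It was the only called member of 10 tested genes of gluconeogenesis and the glyoxylate cycle. GND2 and TKL2, the minor isoforms of the pentose phosphate pathway, differed by 3.38 and 3.17, the 2 calls among 11 genes of that pathway. Of 20 citric acid cycle genes 3 were higher, FUM1 (2.19), ACO1 (1.95) and SDH2 (1.88), and 0 lower, and 7 were higher without replicate 2. With the arrays scaled 0 of the 20 were called, and 0 after quantile normalization. NDE2, an external mitochondrial NADH dehydrogenase, was higher by 2.41 ± 0.40 (adjusted p = 0.0178) and ATP2, a catalytic subunit of ATP synthase, by 2.15 ± 0.37 (adjusted p = 0.0194). CYC7, the hypoxic isoform of cytochrome c, was lower, at -2.34 ± 0.49 (adjusted p = 0.0282).

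For branched-chain amino acid synthesis 8 of 11 were higher in ITD00185 and 0 lower, with a median difference of 2.28, and the counts were the same without replicate 2, with a median of 2.68. Of the 11 genes, 3 were called higher and 0 lower with the arrays scaled, and 3 and 0 after quantile normalization. BAT1, the mitochondrial aminotransferase of the pathway, had 2.93, 2.10 and 3.26 in ITD00185 cultures, against -2.23, -2.21 and -2.61 in T73 cultures, a difference of 5.11 ± 0.40 (adjusted p = 0.00234). LEU2, isopropylmalate dehydrogenase, had 1.71, 1.24 and 1.79 in ITD00185 cultures, against -1.39, -2.04 and -1.47 in T73 cultures, a difference of 3.21 ± 0.35 (adjusted p = 0.00712). Both were called with any array left out. LEU4, isopropylmalate synthase, had 1.41, -0.48 and 0.65 in ITD00185 cultures, against -2.27, -2.78 and -2.37 in T73 cultures. LEU1, the isomerase, had 3.16, 2.51 and 2.27 in ITD00185 cultures, against 0.32, 1.02 and 0.12 in T73 cultures. The remaining calls were ILV3 (2.80), ILV6 (2.33), LEU9 (2.28) and ILV2 (1.36). BAT2, the cytosolic aminotransferase, ILV1 and ILV5 had 0.30, -0.13 and 0.84 and were not called. LEU3, the regulator of the pathway, had values of 0.19, 0.51 and 0.29 in ITD00185 and none in T73. BAP2, a permease for leucine, valine and isoleucine, had 0.29, -0.15 and 0.10 in ITD00185 cultures, against -3.35, -3.97 and -4.09 in T73 cultures, a difference of 3.88 ± 0.35 (adjusted p = 0.00318), called with any array left out.

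The ASP3 genes encode periplasmic asparaginase in near-identical copies on chromosome XII, whose signals cannot be assigned to one copy. ASP3-1 had -3.99, -4.75 and -4.45 in ITD00185 cultures, against 1.89, 1.23 and 1.43 in T73 cultures. ASP3-3 had -4.49, -5.04 and -4.44 in ITD00185 cultures, against 1.54, 1.45 and 1.42 in T73 cultures. Both groups were tight and lay on opposite sides of the mix, with differences of -5.91 ± 0.36 (adjusted p = 0.00091) and -6.13 ± 0.32 (adjusted p = 0.000624), called with any array left out. The copies ASP3-2 and ASP3-4, each with 2 T73 values, differed by -7.66 and -7.76. ASP1, the cytosolic asparaginase, had 0.21, -0.27 and 0.31 in ITD00185 cultures, against 0.26, -0.43 and 0.46 in T73 cultures, which overlap, and its difference of -0.01 ± 0.38 (adjusted p = 0.983) was positive in the centred, scaled and quantile-normalized values.

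Of the allantoin and urea genes 0 of 8 were higher in ITD00185 and 5 lower, with a median difference of -2.82 and the same counts without replicate 2. Of the 8 genes, 0 were called higher and 3 lower with the arrays scaled, and 0 and 3 after quantile normalization. DAL5, the allantoate permease, had -1.70, -1.68 and -1.87 in ITD00185 cultures, against 3.35, 3.74 and 3.96 in T73 cultures, a difference of -5.44 ± 0.32 (adjusted p = 0.00091). DAL1, allantoinase, had -1.48, -1.57 and -1.08 in ITD00185 cultures, against 2.47, 3.43 and 2.40 in T73 cultures, a difference of -4.14 ± 0.40 (adjusted p = 0.00449). Replicate 2 was close to the other ITD00185 arrays in either gene, and both were called with any array left out. DUR3, a urea permease, was lower, at -2.74 ± 0.38 (adjusted p = 0.0123), as were DAL7, a malate synthase, at -2.28 ± 0.36 (adjusted p = 0.0159), and DAL82, an activator of the pathway, at -3.36.

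Among 13 ammonium permeases, assimilation enzymes and GATA regulators 4 were lower and 1 was higher. With the arrays scaled 1 of the 13 was called lower and 0 higher, and after quantile normalization 0 were called. GLN1, glutamine synthetase, had 0.57, 0.56 and 0.35 in ITD00185 cultures, against 3.46, 3.21 and 3.25 in T73 cultures, a difference of -2.81 ± 0.30 (adjusted p = 0.00689) that was called with any array left out. URE2, which holds Gln3 in the cytosol, had -0.73, 1.66 and -0.55 in ITD00185 cultures, against 2.68, 3.09 and 4.15 in T73 cultures. The activator GAT1 had -1.31, 0.48 and -0.32 in ITD00185 cultures, against 2.28, 2.79 and 1.44 in T73 cultures, and the repressor DAL80 had -2.04, -0.01 and -2.18 in ITD00185 cultures, against 2.66, 4.15 and 0.77 in T73 cultures. In all 3 genes ITD00185 replicate 2 was the ITD00185 array closest to T73. Their differences were -3.18, -2.55 and -3.94 with all arrays, and -3.94, -2.99 and -4.64 without it. GLN3 had -1.72, -0.53 and -0.47 in ITD00185 cultures, against -0.70, -0.91 and -0.32 in T73 cultures, with a difference of -0.26 ± 0.44 (adjusted p = 0.69) that was 0.01 in the centred values. GDH3, a glutamate dehydrogenase isoform, was higher by 1.55 ± 0.32 (adjusted p = 0.0267). In the neighbouring pathways PUT1, proline oxidase, was lower, at -3.32 ± 0.74 (adjusted p = 0.0325), as was UGA4, a permease for GABA, at -1.96 ± 0.36 (adjusted p = 0.0223), and CAR2, ornithine aminotransferase, was higher by 2.11 ± 0.56 (adjusted p = 0.0476). DIP5, the permease for glutamate and aspartate, had -2.95, -0.68 and -2.06 in ITD00185 cultures, against 3.17, 2.74 and 2.31 in T73 cultures, a difference of -4.64 ± 0.60 (adjusted p = 0.0104), while MMP1, the S-methylmethionine permease, was higher by 2.46 ± 0.39 (adjusted p = 0.0159).

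Of 39 genes of peroxisomes and fatty acid oxidation, 6 were higher and 1 lower, with a median of 0.01. With the arrays scaled 3 were called higher and 0 lower, and 3 and 0 after quantile normalization. The enzymes of fatty acid oxidation POT1, the thiolase (3.10), DCI1 (1.82) and SPS19 (1.64), the peroxisomal catalase CTA1 (2.20), the carnitine carrier CRC1 (1.40) and PEX11 (3.25), which promotes peroxisome division, were the 6 higher. PEX11 had 0.83, -0.55 and 0.93 in ITD00185 cultures, against -2.94, -3.13 and -2.46 in T73 cultures. POT1 had -0.23, -1.46 and -0.46 in ITD00185 cultures, against -3.81, -3.65 and -3.99 in T73 cultures. The import receptor docking protein PEX14 was lower, with -0.98, 1.52 and -1.15 in ITD00185 cultures, against 3.70 and 4.46 in T73 cultures (no value in replicate 1) and a difference of -4.28 ± 0.87 (adjusted p = 0.0317). Other oxidation genes, FOX2, POX1 and FAA2, had 0.11, 1.01 and -0.03 and were not called. ATG36, the receptor for autophagy of peroxisomes, was higher by 2.57 ± 0.43 (adjusted p = 0.0184), and ATG20, a sorting nexin, was lower, at -4.38 ± 0.76 (adjusted p = 0.0196).

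Of the stationary phase and desiccation genes 7 of 31 were higher in ITD00185 and 0 lower, with a median difference of 0.47. Of the 31 genes, 2 were called higher and 0 lower with the arrays scaled, and 2 and 0 after quantile normalization. The 7 called as deposited were SPG1, GRE1, FMP45, SNZ1 (1.89), SPG5 (1.77), GAC1 (1.75) and DDR2 (1.64). GRE1, a hydrophilin, had 0.91, 0.86 and -0.22 in ITD00185 cultures, against -2.92, -2.25 and -4.50 in T73 cultures. FMP45, a membrane protein of eisosome domains, had a difference of 2.94. The general stress genes HSP12 and CTT1 had -0.95 and 0.16 and were not called. In oxidative defence 7 of 32 were higher and 3 lower. With the arrays scaled 2 were called higher and 1 lower, and 2 and 1 after quantile normalization. The cytosolic superoxide dismutase SOD1 had -0.26, -0.37 and -0.52 in ITD00185 cultures, against -1.90, -2.09 and -1.95 in T73 cultures, a difference of 1.60 ± 0.30 (adjusted p = 0.0231), and the glutathione transferase GTT1 and the peroxidase HYR1 were higher by 2.20 and 1.94. The old yellow enzymes OYE2 and OYE3 were lower, at -2.73 and -2.68, and OYE3 had -1.63, -2.41 and -1.89 in ITD00185 cultures, against 0.81, 0.44 and 0.87 in T73 cultures.

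Of the iron genes 6 of 25 were higher in ITD00185 and 1 lower, with a median difference of 0.44. Of the 25 genes, 2 were called higher and 1 lower with the arrays scaled, and 2 and 1 after quantile normalization. FIT3, a cell wall mannoprotein that retains siderophore iron, had 2.48, 0.05 and 1.44 in ITD00185 cultures, against -3.14, -3.78 and -2.87 in T73 cultures. Replicate 2 of ITD00185 was lowest of its group, and the difference was 4.58 ± 0.63 (adjusted p = 0.0122). The siderophore transporters ARN2 and ARN1 (1.94 and 1.81), FIT1 (1.75), the reductase FRE5 (2.13) and the iron-sulfur scaffold ISU1 (1.67) were also higher. HMX1, haem oxygenase, was lower, at -3.0 ± 0.57 (adjusted p = 0.0239), and FET3 and FTR1 of high-affinity iron uptake had 0.32 and -1.01 and were not called. CTR3, a copper transporter, had -2.21, -1.95 and -2.25 in ITD00185 cultures, against 1.41, 1.44 and 0.63 in T73 cultures, a difference of -3.30 ± 0.36 (adjusted p = 0.00712) that was called with any array left out. ZPS1, a Zap1 target of the cell surface, had 0.87, 1.23 and 0.57 in ITD00185 cultures, against -3.85, -2.66 and -2.14 in T73 cultures, and the zinc transporter ZRT2 was higher by 2.12 ± 0.49 (adjusted p = 0.0349). The aquaporin AQY1 had -0.53, -2.82 and -1.91 in ITD00185 cultures, against -4.78, -5.38 and -4.79 in T73 cultures, a difference of 3.23 ± 0.59 (adjusted p = 0.0223), whereas AQY2 had 0.65, 0.36 and 0.39 in ITD00185 cultures, against 0.25, 0.31 and 1.09 in T73 cultures, which overlap. The sulfite pump SSU1, linked to sulfite resistance in wine strains, had 3.33, 1.92 and 3.02 in ITD00185 cultures, against 0.35, -0.32 and 0.77 in T73 cultures, and was higher in ITD00185 by 2.49 ± 0.49 (adjusted p = 0.0257).

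For the ergosterol synthesis list 2 of 26 were higher in ITD00185 and 8 lower, with a median difference of -1.04, and without replicate 2 the counts were 3 higher and 9 lower of 26. Of the 26 genes, 0 were called higher and 4 lower with the arrays scaled, and 0 and 3 after quantile normalization. ERG20, farnesyl diphosphate synthase, had 0.35, 0.62 and 0.42 in ITD00185 cultures, against 4.22, 4.82 and 3.39 in T73 cultures, a difference of -3.68 ± 0.43 (adjusted p = 0.00748). ERG6, sterol methyltransferase, had 1.32, 1.98 and 1.28 in ITD00185 cultures, against 4.52, 5.36 and 4.57 in T73 cultures, a difference of -3.29 ± 0.39 (adjusted p = 0.00809). Both were called with any array left out. MVD1 (-2.49), IDI1 (-2.75), ERG26 (-2.32), ERG3 (-2.06), ERG5 (-2.06) and ERG12 (-1.86) were the other lower genes. The 2 higher ones were ERG24 (2.06) and HMG2, the reductase isoform induced at low oxygen, with 0.47, 1.25 and -0.27 in ITD00185 cultures, against -1.59, -2.16 and -1.63 in T73 cultures. ERG11, the lanosterol demethylase, had -1.92 and was not called. Of the hypoxic list with ROX1, 4 of 12 were lower and 1 was higher, and MGA2, an activator of the desaturase gene OLE1, was lower, at -3.60 ± 0.85 (adjusted p = 0.0365). With the arrays scaled 1 gene of the hypoxic list was called lower and 0 higher, and 1 and 0 after quantile normalization.

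At the cell surface 5 of 35 wall genes were higher and 1 lower. With the arrays scaled 1 was called higher and 0 lower, and 2 and 0 after quantile normalization. CWP2, a wall mannoprotein, had 4.40, 1.88 and 3.24 in ITD00185 cultures, against -0.15, -1.25 and -0.36 in T73 cultures. PIR3, a wall protein with internal repeats, had -0.13, -0.98 and -0.05 in ITD00185 cultures, against -3.81, -4.28 and -2.89 in T73 cultures. T73 was below the mix on all arrays in both genes, with differences of 3.76 ± 0.67 (adjusted p = 0.0203) and 3.28 ± 0.48 (adjusted p = 0.0142). SPS100 (2.63), the glucanase EXG1 (2.24) and CCW14 (1.42) were also higher and the chitin synthase CHS1 lower (-1.5). AGA1, the anchor of agglutinin, was lower, at -2.21 ± 0.40 (adjusted p = 0.0213). The DUP240 family of membrane proteins had 3 of 4 tested genes higher, MST28, DFP1 and PRM9. Only these 4 of the 9 members on the arrays had enough values to test. With the arrays scaled 0 of the 4 were called, and 0 after quantile normalization. MST28 had 1.79, 1.49 and 5.04 in ITD00185 cultures, against -1.97, -1.72 and -2.41 in T73 cultures. DFP1 had 4.46, 0.34 and 2.61 in ITD00185 cultures, against -1.83, -1.56 and -1.66 in T73 cultures, and PRM9 had a difference of 2.73. In MST28 replicate 3 of ITD00185 was far above the other ITD00185 arrays, and in DFP1 replicate 2 was far below them. The aryl alcohol dehydrogenases, a subtelomeric family of close copies, had 4 of 7 higher and 1 lower, and AAD3 had 1.56, 1.06 and 1.39 in ITD00185 cultures, against -2.55, -2.46 and -2.28 in T73 cultures, a difference of 3.77 ± 0.32 (adjusted p = 0.00261) that was called with any array left out.

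Of the heat shock proteins and chaperones 1 of 32 was higher in ITD00185 and 10 lower, with a median difference of -1.94, and without replicate 2 the counts were 1 higher and 19 lower of 32. Of the 32 genes, 0 were called higher and 2 lower with the arrays scaled, and 0 and 1 after quantile normalization. SSA4, the stress-induced cytosolic Hsp70, had -2.45, 0.77 and -0.27 in ITD00185 cultures, against 4.46, 4.82 and 3.56 in T73 cultures, a difference of -4.93 ± 0.82 (adjusted p = 0.0178). SSE1, an exchange factor of Hsp70, had -0.87, 1.69 and -0.16 in ITD00185 cultures, against 4.83, 5.69 and 3.57 in T73 cultures. HSP42, a small heat shock protein, had -0.46, 0.09 and 0.49 in ITD00185 cultures, against 3.48, 2.88 and 3.29 in T73 cultures, and its difference of -3.18 ± 0.38 (adjusted p = 0.00809) was called with any array left out. Here replicate 2 lay among the other ITD00185 arrays, while for SSA4 and SSE1 it was the closest to T73. Further calls were CPR7 (-5.08), MDJ1 (-3.90), STI1 (-3.69), CPR6 (-3.25), KAR2 (-2.95), SIS1 (-2.77) and YDJ1 (-2.33), and HSP31 was the 1 higher gene (1.90). HSF1 had -1.48, 1.49 and -0.85 in ITD00185 cultures, against 2.77 and 3.32 in T73 cultures (no value in replicate 3). Its difference was -3.32 ± 0.90 (adjusted p = 0.0588) with all arrays and -4.21 without replicate 2 (adjusted p = 0.00509). LHS1, an Hsp70-type chaperone of the endoplasmic reticulum, had -0.21, 2.30 and 0.14 in ITD00185 cultures, against 4.70, 7.42 and 6.04 in T73 cultures, a difference of -5.31 ± 0.88 (adjusted p = 0.0179). It was 1 of 5 lower genes among 29 of secretory folding, whose median was -0.18 as deposited and 0.09 centred.

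The transcription machinery list had 10 of 51 genes lower and 0 higher, and a median of -0.23, which was 0.03 with arrays centred. Of the 51 genes, 7 were called lower with the arrays centred, 1 with them scaled and 2 after quantile normalization, and 0 higher each time. TFA1, the large subunit of TFIIE, had -0.41, 2.68 and -0.61 in ITD00185 cultures, against 11.09 and 9.68 in T73 cultures (no value in replicate 3), and could not be tested with its 1 value beyond 10 left out. BRF1, a subunit of TFIIIB, had -1.11, 1.98 and -1.0 in ITD00185 cultures, against 7.96 and 6.90 in T73 cultures (no value in replicate 3). TFG1 had -0.44, 2.92 and -0.28 in ITD00185 cultures, against 4.90, 5.18 and 7.07 in T73 cultures, a difference of -4.98 ± 1.00 (adjusted p = 0.0261), and RPB3, a subunit of RNA polymerase II, had 0.40, 1.95 and 0.68 in ITD00185 cultures, against 3.5, 3.45 and 4.61 in T73 cultures. In these 4 genes T73 was well above the mix, ITD00185 replicates 1 and 3 were near or below it, and replicate 2 was in between.

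The cytosolic ribosome had 23 of 127 protein genes lower and 1 higher in ITD00185, with a median of -0.73 as deposited, against 0.07 with the arrays scaled and 0.26 after quantile normalization, and 11 were lower with the arrays centred. The 23 were 18.1% of the list, against 9.42% of all genes, and with the arrays scaled or quantile-normalized 0 were lower and 1 was higher. RPL27A, whose copy RPL27B may share its signal, had 1.85, 2.89 and 1.17 in ITD00185 cultures, against 4.83, 5.40 and 5.27 in T73 cultures. RPL25, a single-copy gene, had 0.94, 0.84 and 0.78 in ITD00185 cultures, against 2.64, 2.93 and 2.29 in T73 cultures. Of 61 mitochondrial ribosomal genes 8 were lower and 0 higher (median -1.04), a share of 13.1% that is near the 9.42% of all genes. It was 5 genes with the arrays centred and 1 with them scaled or quantile-normalized. RSM10 had -0.19, 0.09 and 0.06 in ITD00185 cultures, against 2.50, 2.70 and 2.38 in T73 cultures. Ribosome biogenesis had 14 of 80 lower (17.5%, and 1 gene with the arrays scaled), SDA1 among them, and 2 higher, among them NSA1, a large subunit assembly factor, by 2.46 ± 0.32 (adjusted p = 0.0104). Of 33 proteasome genes 4 were lower with all arrays, 0 with the arrays centred and 18 without replicate 2 (median -1.09 with all arrays). The first count is 12.1% of the list, near the 9.42% of all genes, and the last is 54.5%, against 22.7% of all genes in that fit. RPN5, a lid subunit, had -0.13, 2.52 and -0.02 in ITD00185 cultures, against 4.60, 4.12 and 2.89 in T73 cultures. FRS1, a subunit of phenylalanyl-tRNA synthetase, had 1.82, 1.64 and 1.78 in ITD00185 cultures, against 4.22, 4.28 and 4.59 in T73 cultures. Its difference of -2.62 ± 0.30 (adjusted p = 0.00748) was called with any array left out. FRS1 was not called with the arrays scaled (-1.0) or quantile-normalized (-0.79). The lysyl-tRNA synthetase KRS1 was higher, by 2.17 ± 0.30 (adjusted p = 0.012).

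**Figure D4:**
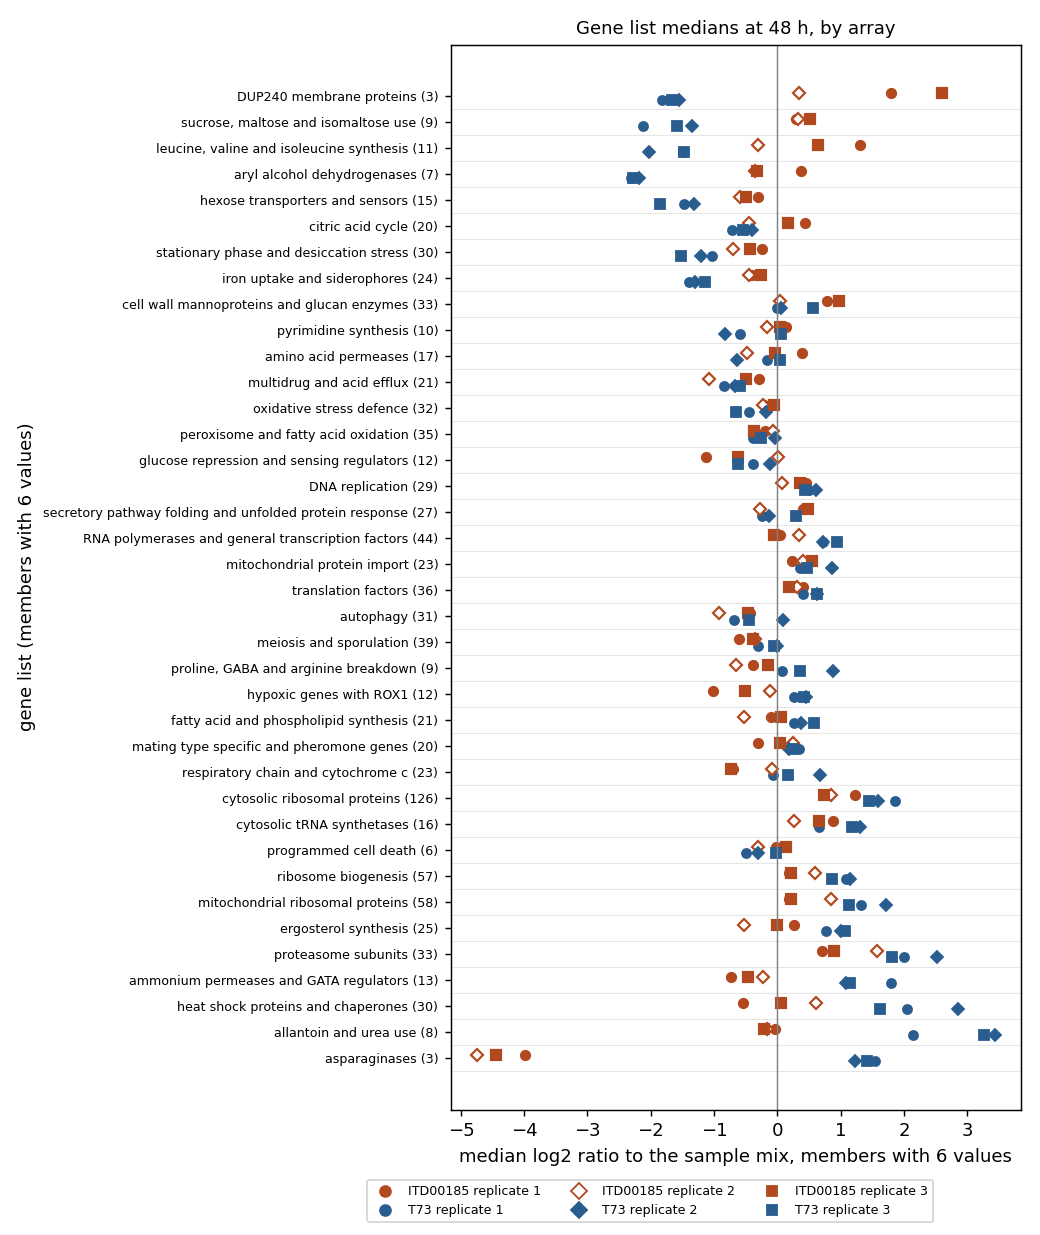
Median log2 ratio to the sample mix (x axis) over the members with 6 values of the 38 gene lists with at least 3 called members, per array, with ITD00185 in orange above T73 in blue in each row and ITD00185 replicate 2 as an open diamond; the number of members is in brackets. The strains do not overlap for asparaginases, allantoin use or chaperones, and they overlap for lists such as DNA replication and peroxisomes.

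Several lists had no call: arginine, histidine and lysine synthesis, trehalose, galactose, the vacuolar ATPase and the anaerobic mannoproteins, with medians of 0.09, 0.20, 0.24, 0.35, 0.33, -0.06 and 0.58, of which those of arginine, trehalose and the vacuolar ATPase changed sign with scaling. Of the 60 tested genes of those 7 lists, 13 had an unadjusted p under 0.05 in limma's fit, 7 of them among the 14 of the vacuolar ATPase. The biotin genes BIO3 and BIO4 were lower, at -1.70 and -1.70, and SUL2, a sulfate permease, was higher by 3.29 ± 0.47 (adjusted p = 0.0138) with 2.21, 0.61 and 1.41 in ITD00185 cultures, against -1.56, -2.17 and -1.91 in T73 cultures. BNA6 of NAD synthesis was higher by 2.95 ± 0.50 (adjusted p = 0.0183) and the sirtuin HST1 lower, at -3.11 ± 0.51 (adjusted p = 0.0172). RED1, a protein of the meiotic chromosome axis, had -3.31, -2.76 and -1.87 in ITD00185 cultures, against 2.87 and 4.22 in T73 cultures (no value in replicate 3), a difference of -6.19 ± 0.62 (adjusted p = 0.00748).

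Called genes were spread over all chromosomes, from 7.33% of the tested genes on chromosome III to 20.0% on chromosome IX, and the median difference per chromosome ran from -0.52 on VII to 0.09 on I. Only 1 run of at least 4 neighbouring measured genes was called in one direction. It lay near the right end of chromosome IX by systematic name and held IRC24 (2.46), HYR1 (1.94), GTT1 (2.20), YPS6 (1.5), PAU15 (2.05) and YIR043C (2.33), all higher in ITD00185 and all called without replicate 2 as well. IRC24, a carbonyl reductase, had 0.78, -1.01 and 0.57 in ITD00185 cultures, against -2.10, -2.72 and -2.21 in T73 cultures.

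Some genes had values in one strain only and could not be tested. In ITD00185 51 genes, 48 of them with a symbol, had 3 values where T73 had none at 48 h, and all 51 had T73 values at 96 h. Replicate 2 was the highest ITD00185 array in 47 of the 51, and the medians of replicates 1, 2 and 3 were 0.19, 3.03 and 0.65. LSM2, of the mRNA decay ring, had 0.69, 3.45 and 0.44, and PAR32 had 0.41, 7.06 and 0.51. In T73 39 genes, 23 with a symbol, had 3 values where ITD00185 had none at 48 h, and all 39 had ITD00185 values at 96 h. Of the 39, 23 were below the mix on all 3 T73 arrays of 48 h. The 39 included the aquaporin AQY3, with -2.68, -3.12 and -2.69, the alpha-glucoside permease MAL11, with -1.61, -2.46 and -2.22, and COX23, a mitochondrial copper protein, with 3.69, 3.59 and 3.85.

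Leaving out replicate 2 moved single genes by over 1 log2 unit in either direction. The largest moves upward, among genes with 6 values, were in CSI2, AGP2, KAP123, SNG1 and DFP1, and the largest downward in HNM1, RRP14, MRPL44, ORC6 and ETP1. CSI2 had 0.89, -4.33 and 0.46 in ITD00185 cultures, against 0.11, 0.23 and 0.46 in T73 cultures, where replicate 2 was the only low array. ORC6, a subunit of the origin recognition complex, had 0.33, 7.28 and 0.41 in ITD00185 cultures, against 5.50, 3.61 and 3.94 in T73 cultures, where it was above all T73 arrays. The difference of ORC6 was -1.68 with all arrays (adjusted p = 0.521) and -3.98 without replicate 2 (adjusted p = 0.00759). RRP14, a ribosome synthesis factor, had -0.56, 5.62 and -0.90 in ITD00185 cultures, against 6.13, 4.78 and 4.72 in T73 cultures, a difference of -3.82 ± 1.65 (adjusted p = 0.141) with all arrays and -5.94 without replicate 2 (adjusted p = 0.00294). HNM1, the choline permease, had -0.19, -0.86 and -16.76 in ITD00185 cultures, against -2.03, 0.29 and -0.14 in T73 cultures, and its difference of -5.31 was 0.10 with the value beyond 10 in replicate 3 left out.

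The strain difference at 48 h was often not that of 96 h. In the fit to all 12 arrays 2080 of 5474 genes passed the threshold for a change of their difference between the times (38%). That fit shares 1 error between the times and may understate the error at 48 h, where arrays vary more. For the 48 h difference itself it gave 2155 calls, against 778 in the fit to 6 arrays. Of the 776 genes called at 48 h and tested for the change, 572 were called for a change. Another 130 showed no call for a change and were called with the same sign at 96 h. Counted with or without a call for a change, 92 of the 776 were called with the opposite sign at 96 h, so these counts are not a split. Of the 24 genes with the largest differences 13 were called with the same sign at 96 h. IRC9, DAL5, ASP3-1 and ASP3-3 had differences of 6.29, -5.44, -5.91 and -6.13 at 48 h and 6.93, -5.04, -7.05 and -7.09 at 96 h. ACS1 had 3.92 at 48 h and -0.02 at 96 h, and ROX1 had -7.33 at 48 h and 1.51 at 96 h. The 48 h and 96 h ratios have mixes of their own time as denominators, which fall out of each difference if 1 mix served the arrays of a time.

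**Figure D5:**
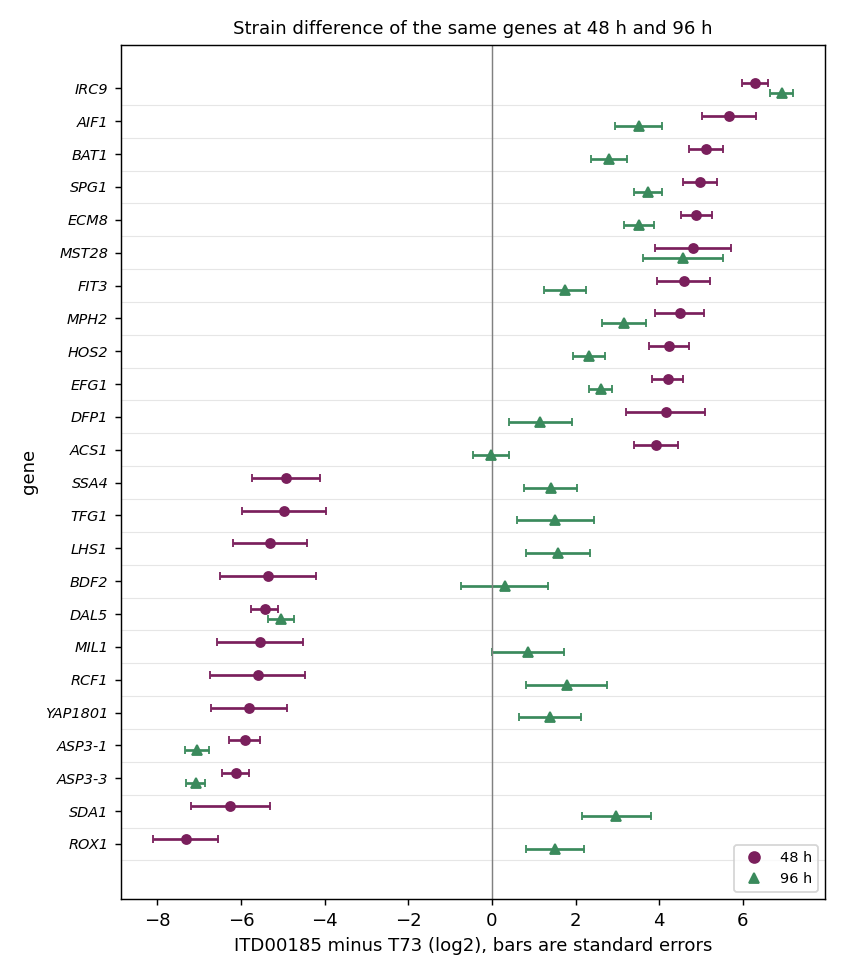
Strain difference (ITD00185 minus T73, log2, x axis) of the 24 genes with the largest differences at 48 h (rows), at 48 h (circles, fit to 6 arrays) and at 96 h (triangles, fit to 12 arrays), with standard errors. IRC9, DAL5, ASP3-1 and ASP3-3 keep differences beyond 5 in size at both times, while ROX1 is at -7.33 at 48 h and 1.51 at 96 h.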

How the data were processed

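The deposited table holds the authors' log2 ratio for each probe and array. Scanning, background correction, filtering, normalization and genome build are not given in the sources used here. Of 6246 probes, 5753 were matched to the R64 gene table of RefSeq by systematic name and 34 by synonym, and 459 kept their own names. The 31 genes with 2 or more probes were averaged over them.

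Gene lists, members and the design were chosen with earlier results of these data known. limma 3.58.1 (R 4.3.3, lmFit and eBayes, two-sided, Benjamini-Hochberg over all tested genes) was fitted to the 6 arrays of 48 h, because they vary more among themselves than those of 96 h. There were 4 residual and 3.16 prior degrees of freedom. The change between times used all 12 arrays. The number of arrays limits the precision, and spot intensities were not used here.

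Named genes were the 12 largest differences per direction (with a symbol, 6 values, no overlap, and a call with and without ITD00185 replicate 2), up to 4 called members per list, the 5 largest moves per direction without that replicate, up to 8 genes per strain measured in that strain alone, runs of called neighbours, and genes given by name. Other members of the lists were added after values were seen. Tested on simulated data for this comparison, the fit called 46 of 50 genes with a true difference of 4, 23 of 50 at 2, 1 of 50 at 1 and 8 of 5322 unchanged genes. The simulated noise of a gene had the same spread on all arrays, with no array set apart and no shifted median. The real arrays differed in spread (SD 1.03 to 2.08), so these rates need not hold for them.

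Alternatives were the 12-array fit, centring, scaling, quantile normalization, array weights, complete genes, extreme values left out, a robust prior, a replicate block and each array left out. Same-numbered arrays of the strains deviated together with r of -0.05, 0.23 and 0.31, so the numbers were not taken as pairs.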

Additional observations from a re-analysis of the deposited data

Results flagged for a closer look

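The difference between the strains at 48 h minus that at 96 h passed the threshold in 2080 of 5474 genes (38%) and in 18 of the 24 genes with the largest differences at 48 h (limma, fit to all 12 arrays, adjusted p under 0.05). The 48 h arrays take part in both tests, so this is no independent look at the 48 h difference. The error shared with the 96 h arrays may also understate that of 48 h, and with it raise these counts. Among the genes higher in ITD00185 at 48 h, this change was 3.94 for ACS1, 3.00 for DFP1, 2.84 for FIT3, 2.32 for BAT1, 1.91 for HOS2, 1.60 for EFG1 and 1.37 for ECM8, so their differences were larger at 48 h. In the genes lower in ITD00185 at 48 h, it was -9.23 for SDA1, -8.84 for ROX1, -7.39 for RCF1, -7.19 for YAP1801, -6.89 for LHS1, -6.50 for TFG1, -6.42 for MIL1, -6.33 for SSA4 and -5.65 for BDF2. These 9 genes had differences above 0 at 96 h, of which only that of SDA1, 2.97, passed the threshold there. For ASP3-1 and ASP3-3 the change was 1.14 and 0.96, with ITD00185 lower at both times and by more at 96 h. Replicate 2 of ITD00185 at 48 h, which correlated with the 96 h arrays of its strain at 0.81 to 0.84, enters these values, and its part in them was not tested gene by gene. Without it 2894 genes passed the test of the change.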

How the results depend on the processing

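With 3 arrays per strain the number of calls depended on the processing. Directions held for nearly all named genes, but for called genes without overlap many of these settings could not turn them. The main count was 778 (258 higher and 520 lower in ITD00185). It was 2155 (704 and 1451) in the fit to all 12 arrays, 2514 (893 and 1621) with array weights, 214 (94 and 120) with arrays centred and scaled to one spread, and 196 (90 and 106) after quantile normalization. It stayed within 1.5 times with centring alone (691), complete genes (817), values beyond 10 left out (807) and a robust prior (773). With each array left out in turn it ran from 50 to 1830 (higher 23 to 611, lower 26 to 1219), lowest without ITD00185 replicate 1 and highest without ITD00185 replicate 2. These counts differ in the number of arrays, in the spread used and in the genes tested, and the cause beyond that was not tested. Without ITD00185 replicate 2, 1897 genes (884 and 1013) were called with the arrays centred and 1791 (802 and 989) with them also scaled, both settings chosen after seeing the data. The count of genes whose difference changed between times ran from 1277 to 2894 with each array left out and was 2239 with centring. The replicate block gave 918 calls (266 and 652), and 2249 for the change between times. Deviations from the group mean did not all correlate best between same-numbered arrays. They did for ITD00185 replicates 2 (0.23) and 3 (0.31), but ITD00185 replicate 1 correlated best with T73 replicate 3 (0.18). The number is therefore not read as a pairing. Of the 191 named genes called in the main comparison, 174 stayed called with the same sign when arrays were centred, 76 when also scaled and 70 after quantile normalization.

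Directions were followed over these settings for the named genes only. None of the 669 called genes with 6 values overlapped between the strains. Their sign could not turn with an array left out or with array weights, so those fits are no test of it. Centring, scaling and quantile normalization could turn it. Of the 191 named genes called in the main comparison, the direction turned for 1. GPP1, a glycerol phosphatase, was at -1.34 as deposited, 0.42 scaled, 0.57 quantile-normalized and 0.87 scaled without ITD00185 replicate 2. The other turns were in named genes that were not called with all arrays. AGP2 (-1.01) ran from -2.96 to 0.27 with each array left out, and was 0.57 centred and 0.58 scaled without replicate 2. AQY2 (-0.08) was 0.18 centred, 0.39 scaled, 0.44 quantile-normalized and 0.047 with array weights, ran from -0.23 to 0.19 with each array left out, and was 0.27 centred and 0.56 scaled without replicate 2. ASP1 (-0.01) was 0.25, 0.27, 0.28 and 0.12 in the same 4 settings, ran from -0.28 to 0.17, and was 0.46 and 0.53 without replicate 2. CSI2 (-1.26) was 0.11 with array weights, ran from -2.20 to 0.41 with each array left out, and was 0.70 centred and 1.03 scaled without replicate 2. GLN3 (-0.26) was 0.0060 centred and ran from -0.48 to 0.14. HNM1 (-5.31) was 0.10 with values beyond 10 left out and ran from -8.18 to 0.10. KAP123 (0.08) ran from -0.54 to 1.25. After quantile normalization ETP1 (-1.55) was 0.16 and ORC6 (-1.68) was 0.091.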

Other observations

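Some further lists held called genes, to be read against the 4.67% of all genes called higher and the 9.42% called lower. In DNA replication 1 of 35 genes was higher (2.86%) and 5 were lower (14.3%). The helicase subunit MCM2 had -0.24, -0.06 and 0.10 in ITD00185 cultures, against 2.07, 3.56 and 3.06 in T73 cultures, a difference of -2.97 ± 0.44 (adjusted p = 0.0151), and its partner MCM7 was lower, at -2.43 ± 0.41 (adjusted p = 0.0223). PRI2, a primase subunit, was higher by 1.98 ± 0.40 (adjusted p = 0.026). The list's median was -0.17 as deposited and 0.10 centred. Of 25 mating type and pheromone genes 4 were lower (16%) and 0 higher, among them the transcription factor STE12, with -1.31, 2.18 and -0.30 in ITD00185 cultures, against 3.38, 3.19 and 4.48 in T73 cultures, where replicate 2 of ITD00185 was the ITD00185 array nearest to T73. STE20, a kinase of the pheromone pathway, and AXL1, a protease that matures a-factor, were lower, at -3.32 and -1.71. The histone genes HTB2 and HHF1 were lower, at -3.06 and -1.92, the 2 calls among 10 (20%).

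In drug and alcohol metabolism PDR1, the regulator of multidrug pumps, had -0.68, 0.29 and -0.38 in ITD00185 cultures, against 2.76, 2.48 and 2.46 in T73 cultures, a difference of -2.82 ± 0.37 (adjusted p = 0.0104). PDR16, a lipid transfer protein, was lower, at -3.05 ± 0.63 (adjusted p = 0.0268), and the pump PDR10 was higher by 1.33 ± 0.33 (adjusted p = 0.0405). EEB1, an acyltransferase that forms ethyl esters, had -2.83, -2.32 and -2.69 in ITD00185 cultures, against -0.42, -0.25 and -0.01 in T73 cultures, a difference of -2.38 ± 0.32 (adjusted p = 0.0117). ADH6, an alcohol dehydrogenase of broad specificity, had 0.70, 0.44 and 0.96 in ITD00185 cultures, against 3.03, 4.30 and 2.75 in T73 cultures, a difference of -2.66 ± 0.47 (adjusted p = 0.021), and SFA1, which also acts on fusel aldehydes, was lower, at -1.52 ± 0.33 (adjusted p = 0.0296). Of 30 mitochondrial import genes 3 were higher (10%) and 0 lower: TIM17, with 2.39, 1.61 and 2.44 in ITD00185 cultures, against -0.51, -0.86 and -0.95 in T73 cultures, TIM9 (2.15) and TIM22 (1.96). In pyrimidine synthesis URA10 and URA2 were higher by 1.96 and 1.53, and URA3 was lower, at -1.63.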
